A study of Rattus norvegicus with 10 samples.

Results

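The miR-183 cluster and the miR-200 family were followed as 8 mature miRNAs in small RNA libraries from rat hippocampus, chosen by name among the 765 miRNAs of the deposited table. They are miR-182, miR-183-5p and miR-96-5p of the miR-183 cluster, miR-200b-3p, miR-200a-3p and miR-429 of one miR-200 locus, and miR-200c-3p and miR-141-3p of the other. All 8 are rows of the table, 7 had a value above 0 in at least 1 library, and the 5 whose level averaged 1 RPM or more across the 10 libraries were tested. RPM is the number of reads of a miRNA scaled to a common total per library. The animals were 10-week-old Wistar rats. In 5 libraries of the 2-VO group both common carotid arteries had been occluded, which lowers the blood supply of the brain, and 5 libraries came from sham-operated rats. The sources used here give neither the interval between operation and sampling nor whether each library is 1 animal, so p-values measure only the spread between libraries, which may be technical.

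MicroRNAs are short RNAs that lower the output of messenger RNAs carrying a match to their seed, bases 2 to 8 from the 5′ end. The miR-183 cluster is made as a single transcript and is best known from sensory cells, such as photoreceptors, hair cells of the inner ear and sensory ganglion neurons. The miR-200 family keeps epithelial cells epithelial by repressing Zeb1 and Zeb2, and is abundant in epithelia, the pituitary and the olfactory system. Neither group is a typical miRNA of hippocampal neurons, so their levels were read per library, as a possible sign of neighbouring tissue in the dissection.

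The sequences below show how close the seeds are within each group and how they differ between the groups. They are the RefSeq mature sequences (build GRCr8), which the reference table held for 5 of the 8 members, with the seed in capitals. No mature sequence is printed for miR-200a-3p, miR-200b-3p and miR-429.
miR-182: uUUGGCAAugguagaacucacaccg
miR-96-5p: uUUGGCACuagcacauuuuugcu
miR-183-5p: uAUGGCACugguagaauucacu
miR-200c-3p: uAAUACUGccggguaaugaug
miR-141-3p: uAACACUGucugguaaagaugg

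Counted from 1 at the 5′ end, the seed of miR-96-5p differs from that of miR-182 by A8C, and from that of miR-183-5p by A2U, where the base of miR-183-5p or miR-182 is given first. The seeds of miR-200c-3p and miR-141-3p differ by U4C, with the base of miR-200c-3p first. Between the groups the seeds differ at 5 or 6 of their bases. No other mature miRNA with a sequence in the reference table shared a seed with any of these 5. miR-200a-3p, miR-200b-3p and miR-429 had no sequence there, so whether they share these seeds could not be seen.

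The members lie at 3 places in the genome, all on the minus strand in GRCr8. The 3 hairpins of the miR-183 cluster span 3908 bases of chromosome 4, between the protein-coding genes Nrf1 and Ube2h and inside no annotated gene. Mature miR-183-5p lies at chr4:59756106-59756127, miR-96-5p at chr4:59755901-59755923 and miR-182 at chr4:59752249-59752273. The miR-200c and miR-141 hairpins span 509 bases elsewhere on chromosome 4, between Phb2 and Ptpn6, with miR-200c-3p at chr4:159209969-159209989 and miR-141-3p at chr4:159209540-159209561. The hairpins of miR-200b, miR-200a and miR-429 span 1908 bases of chromosome 5. They lie within the bounds of the protein-coding gene Ttll10 and of the long noncoding RNA gene LOC106182250. The authors' values rest on the build rn6, so these positions describe the genes and not the authors' counting.

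Both groups were scarce in these hippocampal libraries. All 8 members together summed to 82.8, 19.9, 18.6, 12.0 and 29.6 RPM in 2-VO replicates 3, 5, 6, 7 and 8, against 10.3, 14.2, 12.5, 18.9 and 23.8 RPM in sham replicates 1 to 5. The most abundant, miR-182, ranked 358 of the 765 miRNAs by mean level, and miR-200c-3p, the lowest of the tested members, ranked 435. The divisor of the RPM values is not stated and was worked out, with the smallest listed value of each library taken as 10 reads. It came to 13032805 to 13850400 reads, with which every value above 0 was a whole number of reads. A value of 0 then means fewer than 10 reads, or less than 0.722 to 0.767 RPM. All read counts and their intervals rest on this divisor. Between 60.3% and 78.0% of the divisor fell on listed miRNAs, and the lowest share was that of 2-VO replicate 3.

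2-VO replicate 3 stood apart from the other 9 libraries in the members, and the comparison of 2-VO with sham is given with and without it. Its median difference from the other libraries over the 474 tested miRNAs was -0.24 on the log2(RPM + 1) scale. Of these miRNAs 21, or 4.43%, had their highest value there. On that scale 2.74% of them lay at least 2-fold from the median of the other libraries, against 0.422% to 1.48% for each other library. The 13 miRNAs behind the 2.74% include the members miR-200a-3p, miR-200b-3p, miR-183-5p and miR-182, and miR-3553, a row that overlaps miR-183-5p. The median absolute difference over all tested miRNAs was 0.27 for 2-VO replicate 3, and 0.14 to 0.19 for each other library. By both measures, which include the members, 2-VO replicate 3 was the most distant library. Among the members it was the highest library for 4 of the 5 tested. Scaled to the listed miRNA reads, 14.3% of all tested miRNAs and 5 of 5 members were highest there, since the scaling lifts the whole library.

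miR-182, a miRNA of photoreceptors and other sensory cells, was above 0 in every library. It stood at 15.9, 6.11, 9.43, 5.48 and 9.03 RPM in 2-VO replicates 3, 5, 6, 7 and 8, against 4.91, 6.45, 4.73, 4.96 and 10.1 RPM in sham replicates 1 to 5. The groups overlapped, with 2-VO replicate 3 highest and sham replicate 5 next. The 218 reads in 2-VO replicate 3 give a 95% exact binomial interval of 13.9 to 18.2 RPM, and the 131 reads in sham replicate 5 one of 8.40 to 11.9 RPM. These intervals cover counting error only, since PCR copies were not told apart.

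miR-183-5p, made from the same transcript, stood at 18.9, 4.2, 5.63, 3.38 and 8.31 RPM in 2-VO replicates 3, 5, 6, 7 and 8, against 2.89, 3.49, 4.73, 4.22 and 6.98 RPM in sham replicates 1 to 5. The same library was highest, 2.27-fold above the next, which was 2-VO replicate 8, and the groups again overlapped. The ratio of miR-183-5p to miR-182 was 1.19 in 2-VO replicate 3 and 0.540 to 1 in the other 9 libraries, so that miR-183-5p exceeded miR-182 in that library alone.

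miR-96-5p, whose seed mutations cause progressive hearing loss in mouse and human, was near the limit of the table. It stood at 1.68 RPM (23 reads) in 2-VO replicate 3, 1.15 RPM in replicate 5 and 1.01 RPM in replicate 8, and was listed at 0 in 2-VO replicates 6 and 7 and in all 5 sham libraries. With 14 to 23 reads behind the listed values and up to 9 unseen behind each 0, no fold is given. The 3 libraries with a value include both 2-VO libraries in which miR-183-5p was highest.

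A further row of the table overlaps miR-183-5p. miR-3553 is annotated on the opposite strand of the same place, at chr4:59756105-59756127 of GRCr8. Its mature sequence is printed to show the overlap, with the 22 bases complementary to all of miR-183-5p in capitals.
miR-3553: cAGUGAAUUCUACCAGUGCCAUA

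miR-3553 followed miR-183-5p from library to library. It stood at 20.6, 4.43, 6.69, 3.91 and 8.89 RPM in 2-VO replicates 3, 5, 6, 7 and 8, against 3.25, 3.86, 5.26, 4.88 and 7.52 RPM in sham replicates 1 to 5. The ratio of miR-3553 to miR-183-5p lay between 1.05 and 1.19 in all 10 libraries. The sources used here do not state that strand was used in counting, and without strand the reads of the 2 rows cannot be told apart.

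**Figure D1:**
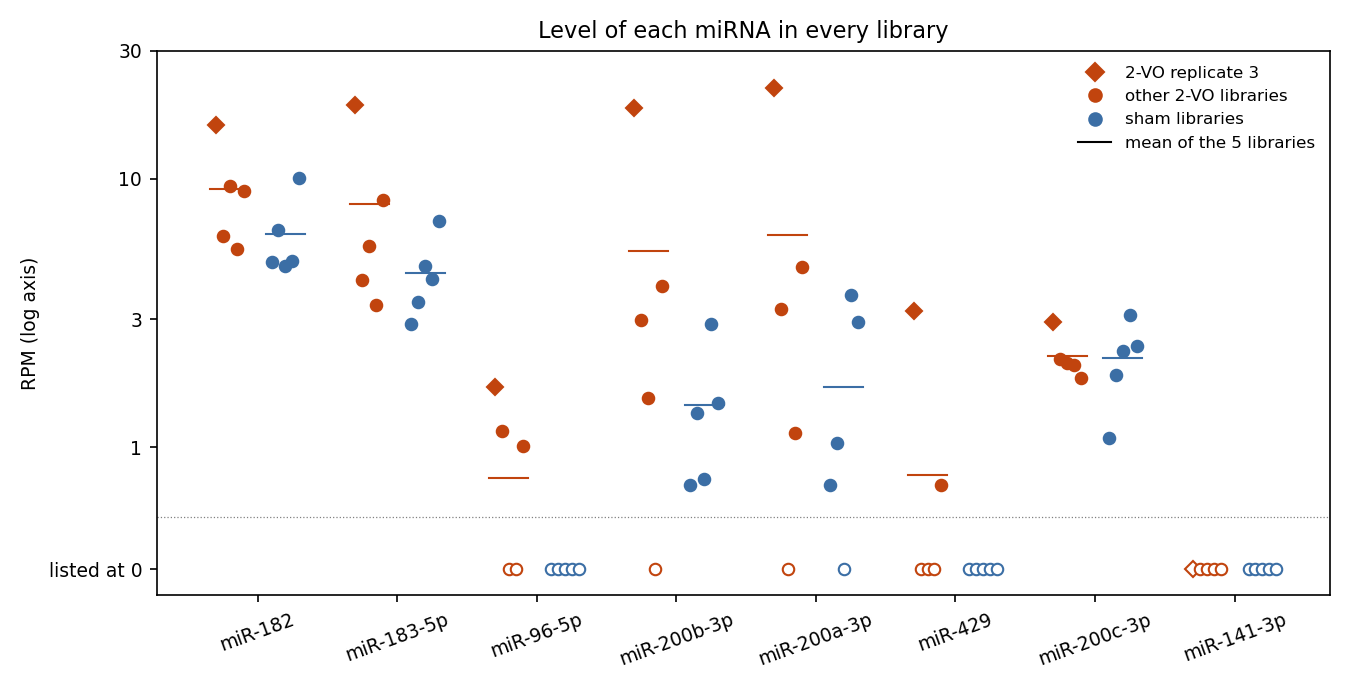
Level of each of the 8 miRNAs, in RPM on a log axis, with 1 point per library (2-VO left of sham), a line at the group mean and open points for values listed at 0. 2-VO replicate 3, drawn as a diamond, is highest for 6 of the 7 detected miRNAs and reaches 21.9 RPM for miR-200a-3p, while miR-200c-3p is highest in sham replicate 4.

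miR-200a-3p, a repressor of Zeb1 and Zeb2, differed most between libraries. It stood at 21.9, 3.28, 0, 1.13 and 4.70 RPM in 2-VO replicates 3, 5, 6, 7 and 8, against 0.722, 1.04, 0, 3.7 and 2.92 RPM in sham replicates 1 to 5. A single 2-VO library was high, while the other 4 reached at most 4.70 RPM and overlapped the sham libraries. The 300 reads in 2-VO replicate 3 give an interval of 19.5 to 24.5 RPM, and the 65 reads in 2-VO replicate 8, the next library, one of 3.62 to 5.99 RPM.

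miR-200b-3p, its neighbour in the genome, stood at 18.4, 2.98, 1.52, 0 and 3.97 RPM in 2-VO replicates 3, 5, 6, 7 and 8, against 0.722, 1.33, 0.762, 2.89 and 1.46 RPM in sham replicates 1 to 5. The order of the high libraries was close to that of miR-200a-3p, with 2-VO replicate 3 followed by replicate 8. 2-VO replicate 3 exceeded replicate 8 by 4.62-fold, and by 4.66-fold for miR-200a-3p. The ratio of miR-200a-3p to miR-200b-3p was 1.19 in 2-VO replicate 3, and 0.778 to 2.00 in the 6 other libraries where both were above 0.

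miR-429, the third miRNA of that locus, was above 0 only in the same pair of libraries. It stood at 3.21 RPM (44 reads) in 2-VO replicate 3 and 0.723 RPM (10 reads) in replicate 8, and was listed at 0 in the other 3 2-VO libraries and in all 5 sham libraries. Of the other arms of the member hairpins in the table, only miR-200a-5p was above 0 anywhere, at 1.39 RPM in 2-VO replicate 3. The rows miR-96-3p, miR-183-3p, miR-141-5p, miR-200b-5p and miR-200c-5p were at 0 in all 10 libraries.

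miR-200c-3p, which acts on the same Zeb targets but comes from the other miR-200 locus, did not have its highest value in 2-VO replicate 3. It stood at 2.92, 2.14, 2.05, 2.03 and 1.81 RPM in 2-VO replicates 3, 5, 6, 7 and 8, against 1.08, 1.85, 2.29, 3.11 and 2.38 RPM in sham replicates 1 to 5. Sham replicate 4 was highest with 42 reads, followed by 2-VO replicate 3 with 40 reads, a difference within counting error. Over the other 9 libraries its highest value was 2.87-fold its lowest, beside 2.88-fold for miR-183-5p and 2.13-fold for miR-182. Scaled to the listed miRNA reads, 2-VO replicate 3 became the highest by a small margin, at 0.000484% of the listed RPM against 0.000468% in sham replicate 4. miR-141-3p, its neighbour in the genome, was listed at 0 in all 10 libraries.

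The 2 miR-200 loci therefore differed in how they varied between libraries. The summed level of miR-200b-3p, miR-200a-3p and miR-429 was 43.5 RPM in 2-VO replicate 3, 1.13 to 9.39 RPM in the other 2-VO libraries and 0.762 to 6.59 RPM in the sham libraries. Over miR-200c-3p, the sum was 14.9-fold in 2-VO replicate 3 and 0.333-fold to 5.20-fold in the other 9 libraries. Set against the miR-183 cluster, the same sum was 1.19-fold in 2-VO replicate 3 and 0.0806-fold to 0.718-fold elsewhere. The split of the family by locus was made after these values had been seen, and no test was run on it.

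**Figure D2:**
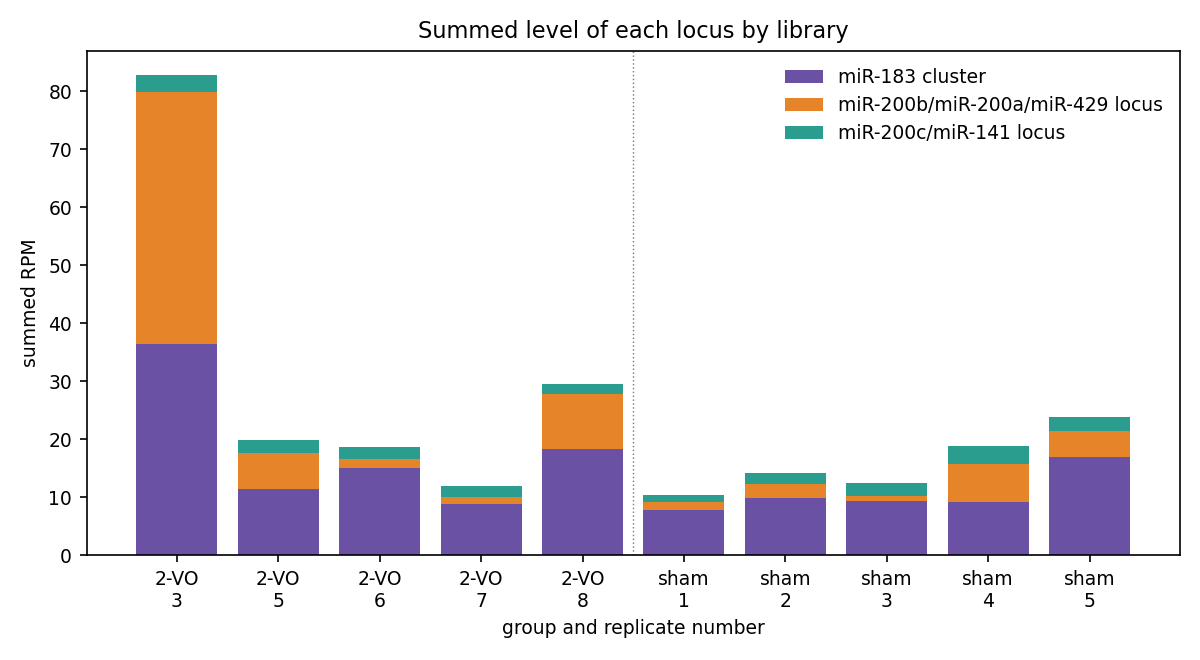
Summed RPM of the 3 loci in each library as stacked bars from 0, with the 5 2-VO libraries left of the 5 sham libraries. The bar of 2-VO replicate 3 reaches 82.8 RPM, of which 43.5 RPM come from the miR-200b/miR-200a/miR-429 locus and 2.92 RPM from the miR-200c/miR-141 locus.

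The order of the members was the same with and without that library, and differed between the groups in the place of miR-200c-3p. By mean, the 2-VO libraries had miR-182 (9.19 ± 4.13 RPM), miR-183-5p (8.08 ± 6.32), miR-200a-3p (6.20 ± 8.95), miR-200b-3p (5.37 ± 7.42) and miR-200c-3p (2.19 ± 0.425; SD, n = 5). None of these neighbours in the order lay further apart than its SD, apart from the last step when measured by the SD of miR-200c-3p. The sham libraries had miR-182 (6.22 ± 2.25 RPM), miR-183-5p (4.46 ± 1.57), miR-200c-3p (2.14 ± 0.744), miR-200a-3p (1.68 ± 1.56) and miR-200b-3p (1.43 ± 0.877; SD, n = 5). There the gap between miR-183-5p and miR-200c-3p exceeded the SD of both, that between miR-182 and miR-183-5p exceeded only the SD of miR-183-5p, and the 3 miR-200 members did not differ beyond their spread. Without 2-VO replicate 3, the 2-VO means of miR-200a-3p and miR-200b-3p were 2.28 ± 2.11 and 2.12 ± 1.73 RPM, beside 2.01 ± 0.141 RPM for miR-200c-3p (SD, n = 4). RPM is not divided by length, and the printed mature sequences are 21 to 25 bases long.

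The comparison of 2-VO with sham asks whether these miRNAs differ in the hippocampus after carotid occlusion. Of the 5 tested members 0 passed, as did 0% of the 474 miRNAs tested (limma's moderated test on log2(RPM + 1), Benjamini-Hochberg adjustment, threshold 0.05). At an unadjusted p under 0.05 there were 0 members and 24 of all miRNAs, or 5.06%. limma's voom on the recovered reads also passed 0 members and 0 miRNAs, but it takes each value listed at 0 as 0 reads. Its log2 fold change was 1.11 for miR-200a-3p, with a 95% interval of -2.31 to 4.52. For miR-200b-3p it was 0.38, with an interval of -2.31 to 3.07. The values of the groups overlapped for all 5 members, while 0.633% of all miRNAs had groups that did not overlap. The log2 fold change was above 0 for 5 of 5 members, against 37.8% of all miRNAs tested, and the median was 0.55 for the members and -0.051 for all. Scaled to the listed miRNA reads or with TMM factors, the share above 0 was 50.6% or 52.3% of all miRNAs and again 5 of 5 members.

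Among the sensory miRNAs, the log2 fold change of miR-182 was 0.46 ± 0.25 (SE; adjusted p = 0.76, limma) with a 95% interval of -0.071 to 0.99. That of miR-183-5p was 0.55 ± 0.33 (limma adjusted p = 0.77), with an interval of -0.16 to 1.26. Among the epithelial miRNAs, the widest interval was that of miR-200a-3p, from -0.55 to 2.23 around 0.84 (limma adjusted p = 0.84). miR-200b-3p had 0.77 with an interval of -0.42 to 1.96 (limma adjusted p = 0.82). The narrowest was that of miR-200c-3p, -0.33 to 0.43 around 0.047 (limma adjusted p = 0.96). A p above the threshold does not show that these levels were alike, and the intervals of miR-200a-3p and miR-200b-3p reach much further above 0 than below it.

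Without 2-VO replicate 3 the log2 fold changes were 0.26 for miR-182, 0.21 for miR-183-5p, 0.22 for miR-200a-3p, 0.19 for miR-200b-3p and -0.030 for miR-200c-3p. The smallest adjusted p among them was 0.87 (limma, 4 against 5 libraries). In this fit 0 of the 474 miRNAs passed and 21 had an unadjusted p under 0.05. The groups overlapped for all 5 members, and 1.48% of all miRNAs had groups that did not overlap. Fold changes were above 0 for 4 of 5 members in this fit, against 49.8% of all miRNAs, with a median of 0.21 for the members and -0.0020 for all. All 5 tested members still averaged 1 RPM or more in the other 9 libraries, so none was tested because of that library alone. Most of the pooled fold change of miR-200a-3p, miR-200b-3p and miR-183-5p thus rested on 2-VO replicate 3.

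**Figure D3:**
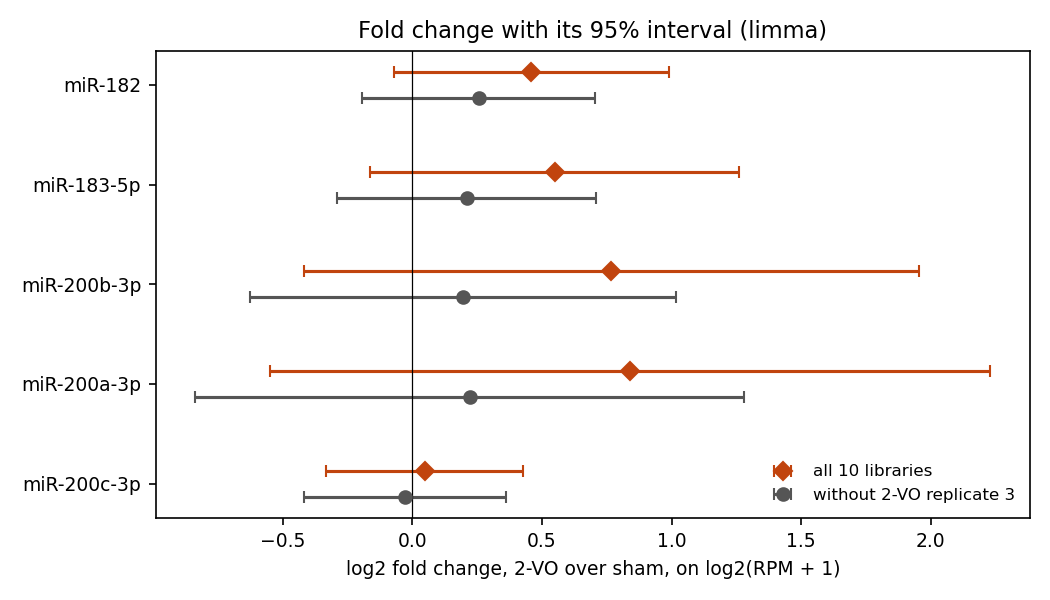
Log2 fold change of 2-VO over sham on the log2(RPM + 1) scale with its 95% interval from limma, for the 5 tested members, with all 10 libraries (diamonds) and without 2-VO replicate 3 (circles). Every interval holds 0, and without that library the 4 larger fold changes fall to between 0.19 and 0.26.

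Of the 5 tested members, 4 were among the 6 miRNAs for which 2-VO replicate 3 lay furthest above the other libraries. On the log2(RPM + 1) scale the difference from the median of the other 9 libraries was 3.43 for miR-200a-3p and 2.98 for miR-200b-3p, the 2 highest of 474. miR-183-5p followed with 1.93 and rank 3, miR-182 had 1.25 and rank 6, and miR-200c-3p had 0.36 and rank 12. In 6 of the 474 miRNAs, or 1.27%, this library was at least 1.5-fold above every other, and 4 of those 6 were members. The other two were miR-3553, the opposite-strand row of miR-183-5p, and miR-6215, at 86.5 RPM in 2-VO replicate 3 and at most 52.8 RPM elsewhere. Scaled to listed miRNA reads or with TMM factors, the number stayed at 6 with 4 members. These ranks describe 1 library, and no test was run on them. The members were chosen with earlier results of these data known, which the ranks may partly reflect.

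**Figure D4:**
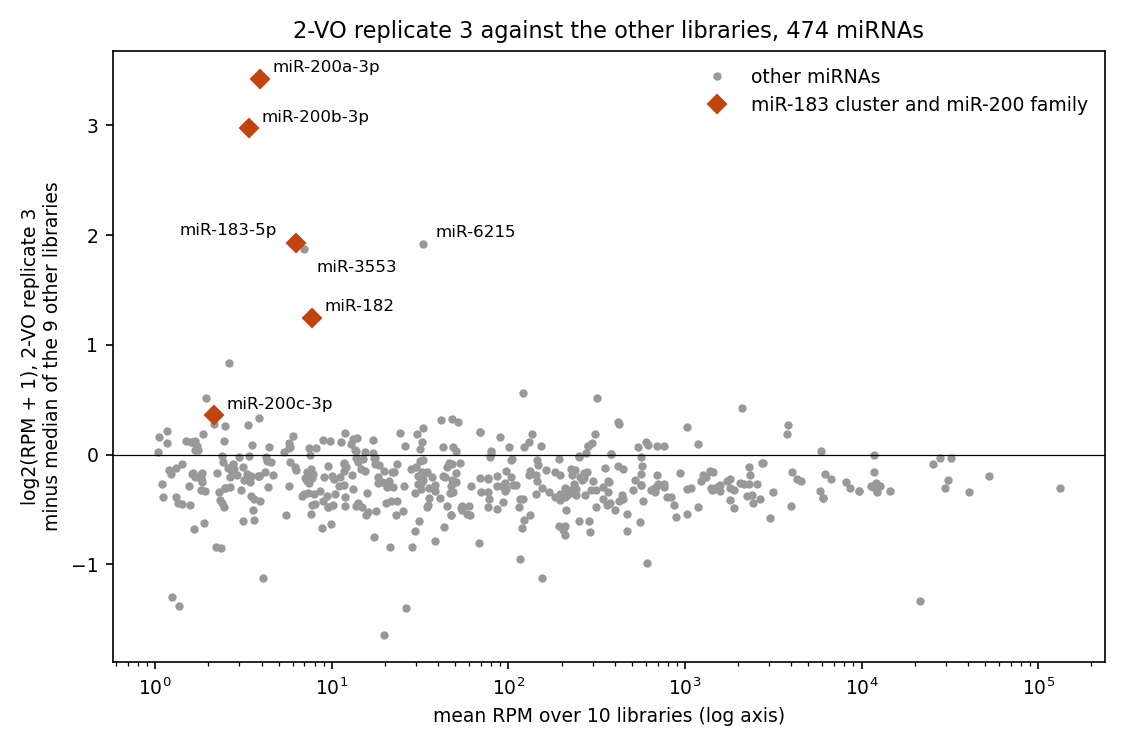
Difference between 2-VO replicate 3 and the median of the other 9 libraries on the log2(RPM + 1) scale, against the mean RPM on a log axis, with 1 point for each of the 474 miRNAs tested. miR-200a-3p at 3.43 and miR-200b-3p at 2.98 lie highest, while the median over all miRNAs is -0.24.

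Of 39 marker miRNAs of other tissues and of neurons, 34 were above 0 in some library, and in RPM 1 of these, miR-10b-5p, was highest in 2-VO replicate 3 while 9 were lowest there. As shares of the listed RPM, 4 were highest there (miR-10b-5p, miR-129-5p, miR-132-3p and miR-203a-3p) and 7 lowest. Of 7 further epithelial miRNAs (miR-203a-3p, miR-203b-3p, miR-205, miR-31a-5p, miR-184, miR-192-5p and miR-194-5p) 0 were highest there in RPM. They summed to 523 RPM in that library, 435 to 722 RPM in the other 2-VO libraries and 525 to 708 RPM in the sham libraries. In 2-VO replicate 3, miR-192-5p gave 378 RPM and miR-194-5p 77.6 RPM of that sum, so it says little about the scarcer miRNAs of the list. miR-205, a miRNA of stratified epithelium, was the only one of the 7 lowest there, at 3.50 RPM against 4.14 to 7.09 RPM in the other 9 libraries. miR-203a-3p, a miRNA of skin epithelium, lay 0.24 above the median of the other libraries on the log2(RPM + 1) scale.

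miRNAs that are abundant in pituitary and endocrine cells (miR-375-3p, miR-7a-5p and miR-7b) were lowest there in sum, at 12051 RPM against 20497 to 29989 RPM in the other 2-VO libraries and 19433 to 30538 RPM in sham libraries. In 2-VO replicate 3, miR-7a-5p gave 9928 RPM and miR-7b 2096 RPM of that sum, so the sum says little about miR-375-3p. miR-7a-5p was abundant in every library, at 16825 to 27352 RPM in the others. Within that list miR-375-3p, at 26.9 RPM, lay within the range of 10.3 to 74.0 RPM of the other libraries. The 9 miRNAs listed for choroid plexus and ependyma, such as miR-204-5p and miR-448-3p, summed to 1368 RPM, within the 1084 to 3020 RPM of the others, with 0 highest there and 1 at 0 in every library.

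Of 6 Hox-cluster miRNAs of hindbrain and spinal cord, miR-196a-5p, miR-196b-5p, miR-196c-5p and miR-615 were at 0 in every library. miR-10b-5p was highest in 2-VO replicate 3, at 4.59 RPM against 0.890 to 4.14 RPM elsewhere. Together miR-10a-5p and miR-10b-5p gave 20.9 RPM there, 12.0 to 33.9 RPM in the other 2-VO libraries and 4.80 to 27.9 RPM in sham libraries. The 4 muscle miRNAs summed to 22.5 RPM there, 22.9 to 36.2 RPM in other 2-VO libraries and 26.1 to 32.1 RPM in sham libraries.

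All 4 red blood cell miRNAs were lowest in 2-VO replicate 3, with a sum of 84.9 RPM against 141 to 219.7 RPM in the other 2-VO libraries and 131 to 157 RPM in sham libraries. The 6 miRNAs of hippocampal neurons, miR-124-3p, miR-128-3p, miR-9a-5p, miR-132-3p, miR-138-5p and miR-129-5p, were abundant in every library. Their sum in RPM was lowest in 2-VO replicate 3, at 165833 RPM against 174369 to 213512 RPM elsewhere, but not after scaling. They took 27.5% of the listed RPM in 2-VO replicate 3 and 26.2% to 28.3% in the other 9 libraries. Of the tested miRNAs in these 7 lists 0 passed the comparison of 2-VO with sham, as did 0% of all 474 miRNAs tested (limma). What part the markers have in the members' levels was not tested. In whole tissue, more cells of a type and more of a miRNA per cell cannot be told apart.

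**Figure D5:**
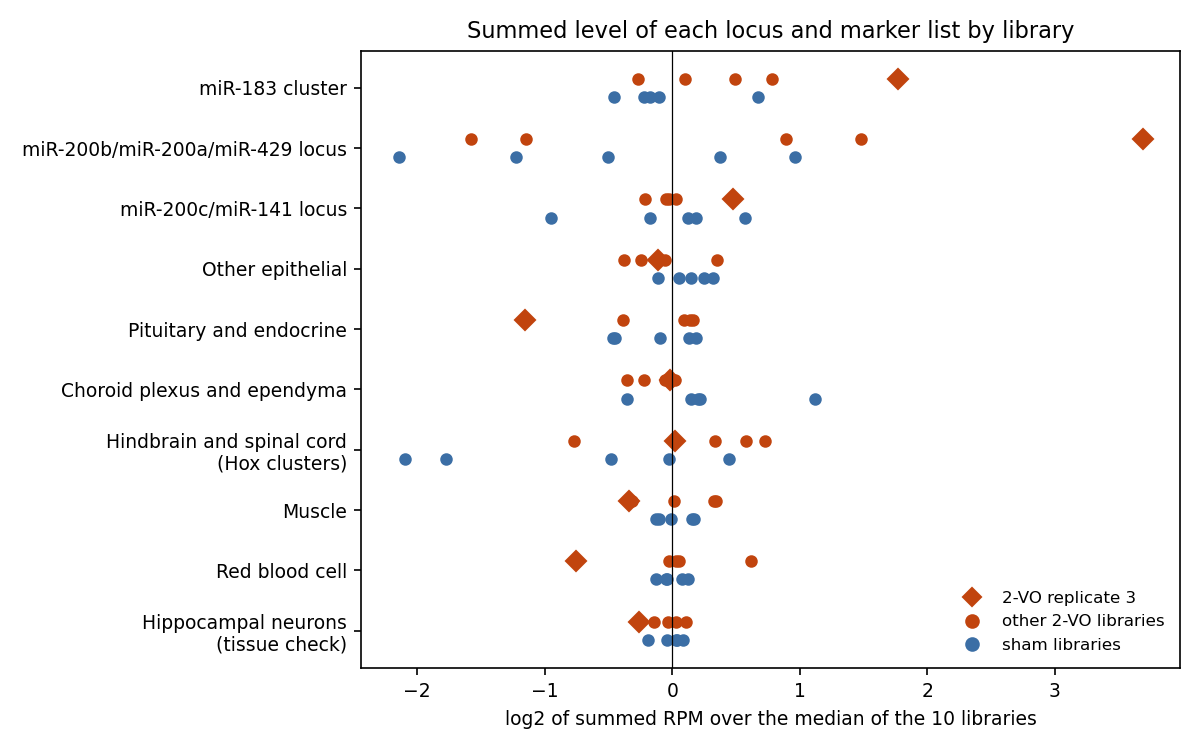
Summed RPM of the 3 loci and the 7 marker lists in each library, as log2 over the median of the 10 libraries, with 2-VO points above sham points. 2-VO replicate 3, drawn as a diamond, lies highest for the miR-183 cluster and the miR-200b/miR-200a/miR-429 locus and lowest in RPM for the pituitary and endocrine, muscle, red blood cell and hippocampal neuron lists, of which muscle and neurons are not lowest there as shares of the listed RPM.

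Likeness of other miRNAs to the members in their course over the libraries was the mean absolute difference over the 10 libraries between a miRNA and the summed members, each as log2(RPM + 1) centred on its own median, and its median over 469 candidates was 0.59. A miRNA with the same level in every library would have 0.55. miR-3553, the opposite-strand row of miR-183-5p, was nearest with 0.24. Its reads may be those of miR-183-5p, which is part of the sum, so its first place does not show a further miRNA like the members. Next came miR-338-3p, a miRNA of oligodendrocytes, with 0.38, then miR-490-5p with 0.39, miR-6325 with 0.42 and miR-490-3p with 0.43. Of these 5, all except miR-6325 were highest in 2-VO replicate 3. Without that library 3 of the 5 were again among the 5 nearest, led by miR-490-5p with 0.21, and a level that did not vary would have 0.38. miR-338-3p stood at 173 RPM in 2-VO replicate 3. The other 2-VO libraries had 86.5 to 145 RPM and the sham libraries 72.6 to 152 RPM. Its step was much smaller than that of the summed members.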

How the data were processed

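Small RNA libraries of rat hippocampus (5 of 2-VO, 5 of sham) were compared from the deposited RPM table, in which the authors give the RPM of each mature miRNA, per the file headers. Tools named by the submitters' processing notes are bcl2fastq and BWA, with the build rn6. The sources used here do not give the annotation, the divisor or the use of strand. The smallest value of each library was taken as 10 reads. With 1 divisor in each library worked out from this (13032805 to 13850400), all 4962 values above 0 came out as whole numbers of reads to within 0.01. Values under 10 reads are then listed as 0, so the planned count test was not run. limma's voom on the recovered reads, added after the data were seen, took its place, and has the same limit.

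miRNAs averaging 1 RPM or more (474) were tested on log2(RPM + 1) with limma 3.58.1 in R 4.3.3 (mean-variance trend, two-sided, no covariate, Benjamini-Hochberg adjustment over all 474, threshold 0.05). Fold changes on this scale understate those of low miRNAs. The fit was tested on simulated data. Other pseudocounts, filters, scalings, treatments of 0, weights, a replicate block, an exact permutation test and leaving out each library were tried. Likeness and the overlap of the groups without 2-VO replicate 3 were added after the data were seen. Named miRNAs are all members, other arms of their hairpins, marker lists, and the 5 nearest in course over the libraries, and miR-6215 and the miRNAs named only under the closing observations were chosen after their values were seen. The members and lists were chosen with earlier results of these data known.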

Additional observations from a re-analysis of the deposited data

Results flagged for a closer look

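In a group of 5 libraries a value was marked where its gap to the nearest library exceeded 0.71 of the range of the group. Of 22 groups of values that were not all 0 (the 7 detected members and the sums, in 2-VO and in sham) 7 were marked. Chance would give about 1.1 if the groups were independent and normally spread. The sums repeat their members and some groups hold values of 0, so no excess over chance can be read from this count. In the 2-VO group, replicate 3 was marked for miR-200a-3p (21.9 RPM, others 0 to 4.70), miR-200b-3p (18.4 RPM, others 0 to 3.97) and miR-429 (3.21 RPM, others 0 to 0.723). It was also marked for the sum of the miR-200 family (46.4 RPM, others 3.16 to 11.2), of the miR-200b/miR-200a/miR-429 locus (43.5 RPM, others 1.13 to 9.39) and of all 8 members (82.8 RPM, others 12.0 to 29.6). That library had the lowest share of reads on listed miRNAs, 60.3% of all libraries, and the part of this share in the values was not tested.

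In the sham group, replicate 5 was marked for the sum of the miR-183 cluster, at 17.0 RPM where the other sham libraries had 7.80 to 9.94 RPM. The choroid plexus and ependyma list was also highest in that library, at 3020 RPM, where the other 9 libraries had 1084 to 1614 RPM. So was the pituitary and endocrine list, at 30538 RPM, with 12051 to 29989 RPM elsewhere. In 2-VO replicate 3, where the miR-183 cluster reached 36.5 RPM, the choroid plexus and ependyma list stood at 1368 RPM. Whether any of these values are linked was not tested.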

How the results depend on the processing

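The number of miRNAs that passed was 0 of 474 and remained 0 in every setting tried except the replicate block, and the 5 tested members stayed short of the adjusted threshold in the same settings. With the replicate number as a block (replicate block), 8 miRNAs passed, and the log2 fold changes of miR-200a-3p and miR-200b-3p were 2.32 and 2.08 (limma adjusted p = 4.9e-08 and 1.9e-06, the lowest over all settings, where the highest was 0.98). Only numbers 3 and 5 occur in both groups, so that fit compares 2-VO replicates 3 and 5 with sham replicates 3 and 5. The deviations of same-numbered libraries had correlations of -0.058 and -0.18 over 474 miRNAs, no label says that a number pairs libraries, and the block was not used. The log2 fold change of miR-200c-3p was -0.020 with array weights, and the cause was not tested. Leaving out 1 library at a time gave -0.093 to 0.15 for miR-200c-3p, where it was below 0 without 2-VO replicate 3 or sham replicate 1. The same range was 0.26 to 0.62 for miR-182, 0.21 to 0.76 for miR-183-5p, 0.22 to 1.35 for miR-200a-3p and 0.19 to 1.26 for miR-200b-3p. In some of these fits each of these members had an unadjusted p under 0.05 (limma), with an adjusted p of at least 0.48. None did without 2-VO replicate 3. The fold of 2-VO replicate 3 over the next library was 1.99 for the summed miR-183 cluster and 4.14 for the summed miR-200 family. TMM factors gave 2.48 and 5.18, and totals of listed miRNAs gave 2.45 and 5.11, since both lift that library. The log2 difference of 2-VO minus sham was 0.59 for the summed miR-183 cluster (0.31 to 0.79 when 1 library is left out) and 0.81 for the summed miR-200 family (0.25 to 1.13), lowest without 2-VO replicate 3, and above 0 in each setting tried. The planned edgeR count test was not run, as values under 10 reads are not listed. Depth limits miR-96-5p, miR-429 and miR-141-3p, which were listed at 0 in 7, 8 and 10 of the 10 libraries. Without the filter, the log2 fold change was 0.71 for miR-96-5p (limma unadjusted p = 0.020, adjusted p = 0.74). That of miR-429 was 0.57 (limma unadjusted p = 0.11, adjusted p = 0.78). Of the 528 miRNAs in that fit, 28 had an unadjusted p under 0.05.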

Other observations

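Rows on opposite strands of one place were compared over the whole table, using the mature positions in GRCr8. For 10 such pairs that overlap by at least 22 bases and were above 0 in every library, the ratio of the plus-strand to the minus-strand row lay between 0.9998 and 1.25 in every library for 10 of 10 pairs. miR-3553 and miR-183-5p are among them, as are miR-3574 and miR-210-3p, which held equal values. For 23 pairs with a shorter overlap, 1 stayed within 0.99 to 1.3. The pairs were looked for after miR-3553 had been seen to follow miR-183-5p.

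Among the 21 miRNAs highest in 2-VO replicate 3 were also miR-338-3p, miR-338-5p, miR-219b and miR-219a-2-3p, which belong to oligodendrocyte miRNA loci and were named after their values were seen. miR-219b and miR-219a-2-3p lie on opposite strands and overlap by 20 bases. Their differences from the median of the other 9 libraries were 0.56, 0.28, 0.52 and 0.43 on the log2(RPM + 1) scale. The further miR-219 rows did not have their highest value there, with a difference of 0.32 for miR-219a-5p and of -0.30 for miR-219a-1-3p. At the other end, miR-451-5p of red blood cells lay 1.64 below that median, at 5.76 RPM, and miR-7a-5p lay 1.33 below, at 9928 RPM.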
